A study of Vitis vinifera with 2 samples.

Results

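The methylome of young leaves of *Vitis vinifera* cv. 'Chardonnay' was described on its own, from the 1 leaf library among the 2 whole-genome bisulphite libraries of the series. Its members were every transposable element (TE) with a deposited leaf value in the CG, CHG or CHH context (H stands for A, C or T), together with the average leaf profiles over genes and over TEs. This gave 184251 TEs, of which 43403 were genic TEs, which overlapped an annotated gene, and 140848 were intergenic TEs, which did not. The study set leaf beside embryogenic callus, and the callus values were not analysed here. The leaf DNA came from small leaves of vineyard vines, several of them pooled, so it holds a mixture of leaf cell types, and the reads were placed on the PN40024 genome, which is of another cultivar. With 1 library no difference could be tested, and no p-value is given. The spread of a value over chromosomes 1 to 19 is given in place of replicate error, although chromosomes of 1 library are not replicates.

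In plants, cytosines carry methyl groups in all of these contexts, and each context has its own enzymes. CG methylation is copied to the new strand after replication by MET1, and is found both in silenced TEs and in the bodies of many expressed genes. CHG methylation is kept by chromomethylase CMT3, which binds histone H3 methylated at lysine 9, a mark of silent chromatin. CHH sites have no matching cytosine on the other strand, and their methylation depends on CMT2 and on the small RNA pathway that ends in DRM2. These roles are best known from Arabidopsis. In bisulphite sequencing, unmethylated cytosines are read as thymine, so the methylation level is the fraction of the reads over a position in which a cytosine remains. Each deposited level is an average over the cytosines of 1 context in 1 TE, and is given here as a percentage.

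Not every TE had a value in every context. The authors kept a TE in a context only where its effective coverage was above 20 in both libraries, and 88570 TEs (48.1%) were listed in all 3 contexts, with a median length of 719 bp. A further 59898 TEs (32.5%) were listed for CHH alone, with a median length of 182 bp. The joint states below therefore describe the longer part of the TEs. The share listed in all 3 contexts was much the same in both classes, 48.2% of genic TEs and 48.04% of intergenic TEs, and so were the median lengths over all listed TEs, 305 bp in genic TEs and 318 bp in intergenic TEs. The read depth behind a single level is unknown, because the tables hold fractions only.

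CG levels were high and alike in both classes, whereas CHG levels separated them. The median CG level was 89.01% in genic TEs, with quartiles of 81.5% and 93.2%, and 87.3% in intergenic TEs, with quartiles of 78.3% and 92.03%. The median CHG level was 55.3% in genic TEs and 68.3% in intergenic TEs, and the lower quartile lay at 9.56% in genic TEs and at 52.5% in intergenic TEs. The genic CHG levels had a peak at each end of the scale. Of 27500 genic TEs, 25.2% lay under 10% and 16.96% lay from 70% to 80%, while only 4.53% lay from 20% to 30%. Of 81035 intergenic TEs, 5.94% lay under 10% and 26.3% lay from 70% to 80%. The median CHH level was 1.11% in genic TEs and 2.11% in intergenic TEs, and most TEs of both classes stayed under 5%.

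**Figure D1:**
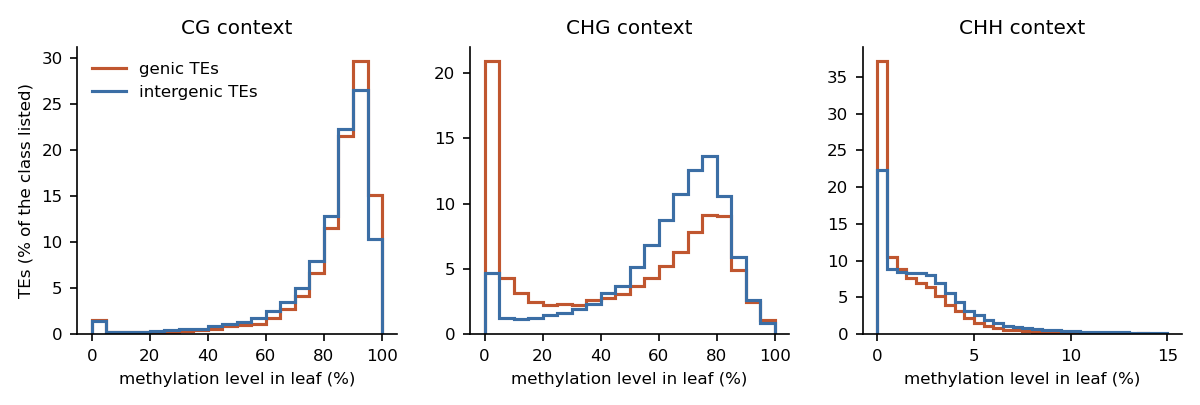
Distribution of the leaf methylation level (x axis, percent) over TEs in each context, as the share of the genic or intergenic TEs listed in that context (y axis, percent), in steps of 5 points for CG and CHG and 0.5 points for CHH. The CHH panel ends at 15%, which leaves out 0.928% of genic and 2.18% of intergenic TEs. Genic TEs show a CHG peak in the lowest step (20.9% of them) that is much smaller in intergenic TEs (4.67%).

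To see which contexts were methylated together in the same TE, each TE listed in all 3 contexts was given a joint state, taking CG as methylated at 50% or more, CHG at 20% or more and CHH at 5% or more. These limits are conventions, since the deposited levels hold no calls. Of the 8 possible states, CG with CHG was the most frequent at these limits, in 67.2% of 20901 genic TEs and in 74.8% of 67669 intergenic TEs. Its median levels in genic TEs were 89.6% CG, 70.1% CHG and 2.30% CHH, against 87.97% CG, 69.8% CHG and 2.58% CHH in intergenic TEs. In this state, genic TEs thus had CG and CHG levels close to those of intergenic TEs. Its CHH medians say less about the classes, because the state leaves out every TE with CHH of 5% or more.

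The classes differed most in the state with CG methylation alone. It held 4241 genic TEs, or 20.3% (95% Wilson interval 19.8% to 20.8%, which takes TEs as the units and does not cover read depth), and 2383 intergenic TEs, or 3.52% (3.39% to 3.66%). The share in genic TEs was 5.76 times that in intergenic TEs and was higher on 19 of 19 chromosomes, where it ranged from 15.02% on chromosome 15 to 24.6% on chromosome 6, against 2.27% on chromosome 15 to 4.71% on chromosome 5 in intergenic TEs. The median CG level of these genic TEs was 88.7%, nearly that of genic TEs with CG and CHG, while their median CHG level was 3.05% and their median CHH level 0.25%. Their CHG levels were mostly far below the limit, with an upper quartile of 9.23%, and 736 genic TEs (3.52%) had CG of at least 80% with CHG listed at 0, against 249 intergenic TEs (0.368%).

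Methylation in all contexts together had the opposite order. It was found in 1691 genic TEs (8.09%, interval 7.73% to 8.47%) and in 11032 intergenic TEs (16.3%, interval 16.03% to 16.6%), with the genic share lower on 19 of 19 chromosomes. In this state the median CHH level was 6.32% in genic TEs and 6.71% in intergenic TEs, just over the limit. With lower limits of 20% CG, 10% CHG and 2% CHH this state held 48.2% of genic and 67.5% of intergenic TEs, so its size, but not the order of the classes, depended on the limits. Many TEs lay near that limit, since 11.3% of genic and 16.5% of intergenic TEs had a CHH level within 1 point of it, while 4.54% of genic and 2.44% of intergenic TEs lay within 5 points of the CHG limit. TEs under all limits made up 3.02% of genic and 2.80% of intergenic TEs, with the genic share higher on 12 chromosomes and lower on 7, so the order of the classes was not stable for this state.

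The remaining states were rare. CHG alone was found in 0.9904% of genic and 1.97% of intergenic TEs, with median levels of 40.6% CG and 40.8% CHG in genic TEs and 41.1% CG and 41.2% CHG in intergenic TEs. Their CG levels thus mostly lay not far below the limit. CHG with CHH was found in 23 genic TEs (0.110%) and 175 intergenic TEs (0.259%), and CG with CHH, lacking CHG, in 50 genic TEs (0.239%) and 178 intergenic TEs (0.263%). CHH alone was found in 8 genic TEs (0.0383%) and 49 intergenic TEs (0.0724%), whose median lengths were 222 bp and 209 bp.

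**Figure D2:**
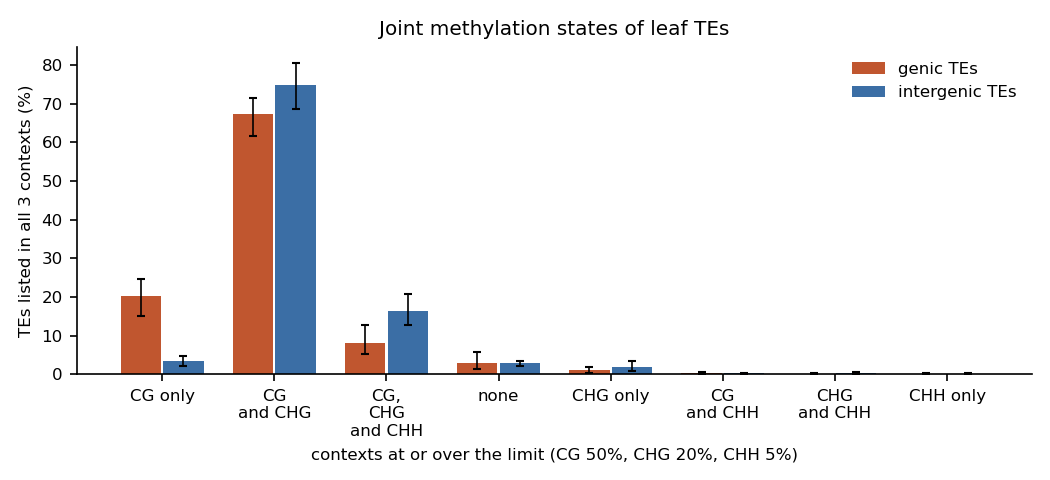
Share of genic and intergenic TEs (y axis, percent of those listed in all 3 contexts) in each of the 8 joint states (x axis). Bars are shares over all TEs and the black lines run from the lowest to the highest of 19 chromosomes. The CG only bars are 20.3% in genic and 3.52% in intergenic TEs, and their lines do not overlap.

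Within single TEs the contexts mostly kept 1 order. CG was above CHG and CHG above CHH in 86.8% of genic and 89.8% of intergenic TEs. CHG was above CG in 6.10% of genic TEs and 8.07% of intergenic TEs, and was at least 20 points above CG in 154 genic TEs (0.737%) and 742 intergenic TEs (1.10%). In these TEs the median levels were 49.02% CG and 83.1% CHG in genic TEs and 43.8% CG and 77.8% CHG in intergenic TEs, with median lengths of 343 bp and 351 bp. CHH was above CHG in 4.15% of genic and 1.23% of intergenic TEs, and in both classes the median CHG level of those TEs was 0.

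The longest TE of each state shows what the states look like over an extended stretch. Positions are on the 12X assembly of PN40024 as the tables give them. In the state with CG alone, the longest genic TE lay at chr5:13736065-13741432 on the plus strand (5367 bp) with 89.2% CG, 18.3% CHG and 1.08% CHH, and the longest intergenic TE lay at chr10:10329269-10334218 on the minus strand (4949 bp) with 87.6% CG, 15.5% CHG and 1.39% CHH. Both CHG levels lay close to the limit of 20%, unlike the median of their state. With CG and CHG methylated, the longest genic TE was at chr15:2769620-2783546 (13926 bp) with 90.3% CG, 81.1% CHG and 2.72% CHH, and the longest intergenic TE, which was also the longest of all TEs, was at chr2:11495912-11531592 (35680 bp) with 94.4% CG, 80.8% CHG and 3.60% CHH.

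With all contexts methylated, the longest genic TE was at chr14:16963695-16978583 (14888 bp) with 92.1% CG, 80.5% CHG and 5.15% CHH. The intergenic one, at chr14:15184825-15208145 (23320 bp), had 75% CG, 51.5% CHG and 6.04% CHH. Among the TEs under all limits, the longest genic TE, at chr8:9163403-9167986 (4583 bp), had 23.5% CG, 0.03% CHG and 0.04% CHH. The longest intergenic one, at chr18:19771022-19775961 (4939 bp), had 41.9% CG, 3.06% CHG and 0.37% CHH. An intergenic TE of 1668 bp at chr1:10126401-10128069 had 69.96% CG and 10.9% CHH with CHG listed at 0, and was the longest with CG and CHH but not CHG. In the states with CHG but not CG, the longest genic TEs were at chr12:19394632-19399246 (31.2% CG, 59.1% CHG and 4.22% CHH) and at chr12:22160044-22164426 (39.4% CG, 70.1% CHG and 6.57% CHH). The genes that these genic TEs overlap were not analysed here.

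The rank correlation (Spearman's) over TEs listed in both contexts describes how far the contexts rose together from TE to TE. The TEs share the library, its reads and their local sequence, so this correlation is a description. CHG and CHH were the most tightly linked pair in genic TEs, with a rank correlation of 0.681 over 27458 TEs and a range of 0.648 to 0.709 over 19 chromosomes. In intergenic TEs the rank correlation was 0.365 over 80899 TEs, with a range of 0.323 to 0.419, so the chromosome ranges of the classes did not overlap. CG and CHG had the opposite order of classes, with a rank correlation of 0.223 in genic TEs (0.166 to 0.298 over chromosomes) and 0.412 in intergenic TEs (0.351 to 0.436). Over all TEs listed in both, CG and CHH were only weakly related in rank, with a rank correlation of 0.0490 in genic and 0.146 in intergenic TEs. Among TEs with CG under 50% this rank correlation was 0.435 in genic (n = 1126) and 0.414 in intergenic TEs (n = 4758). Among TEs with CG of at least 80% it was -0.0933 in genic and -0.0106 in intergenic TEs.

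The link between contexts differed along the scale of levels. Among TEs with CHG of at least 20%, the rank correlation between CHG and CHH was 0.354 in genic and 0.243 in intergenic TEs, and among TEs with CHG under 20% it was 0.390 in genic and 0.466 in intergenic TEs, where the order of the classes turned. Among TEs with CG of at least 80%, the rank correlation between CG and CHG was 0.0457 in genic and 0.190 in intergenic TEs. In the few TEs with CG under 50% it was 0.509 in genic TEs (n = 874) and 0.547 in intergenic TEs (n = 3466), and the rank correlation between CHG and CHH there was 0.687 in genic and 0.678 in intergenic TEs. The classes were thus close to each other where CG methylation was low and apart where it was high.

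Taken in steps of CHG level, the median CHH level was higher with each step up to a CHG level of 90%. In genic TEs the median CHH level was 0.07% where CHG was under 5%, 1% where CHG was 20% to 40%, 2.76% where it was 60% to 80% and 3.08% where it was 80% to 90%. In intergenic TEs the medians in the same steps were 0.10%, 1.43%, 3.04% and 3.44%. The part of incomplete conversion in the medians of the lowest step was not tested. In the top step, CHG of 90% or more, the median was lower again, 2.40% in genic and 3.12% in intergenic TEs, and these TEs were short, with median lengths of 325 bp and 284 bp. The share of TEs with CHH of 5% or more was still highest in this step, 16.4% in genic and 26.6% in intergenic TEs. CHG in steps of CG level differed in its spread. Where CG was 90% or more, the CHG quartiles were 32.3% and 80.7% in genic TEs, against 63.9% and 81.6% in intergenic TEs. The upper quartile was thus alike, and the lower quartile was not.

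**Figure D3:**
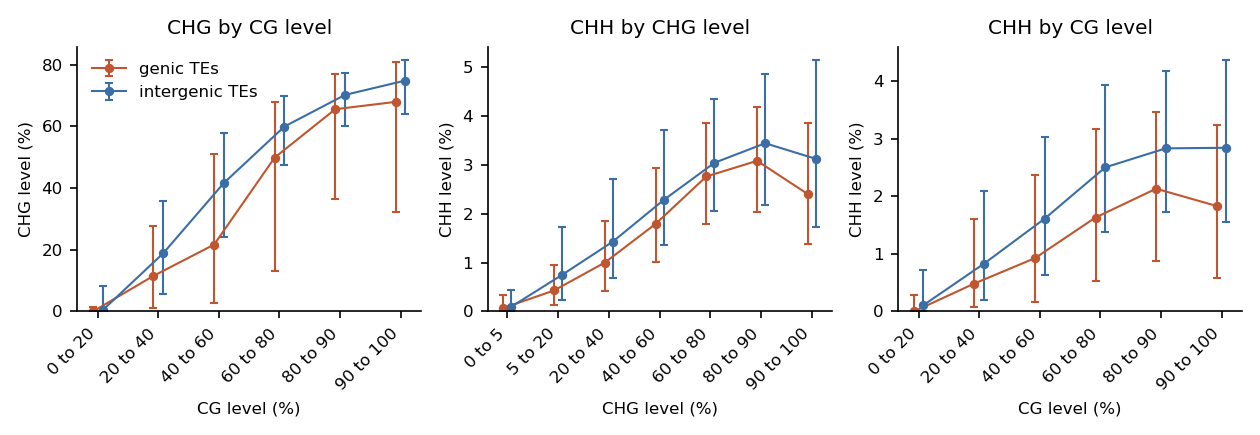
Median level of 1 context (y axis, percent) in TEs grouped by the level of another (x axis, percent), with bars from the lower to the upper quartile over TEs. CHG follows CG in both classes, with genic medians of 67.9% and intergenic medians of 74.9% in the top CG step, and CHH follows CHG up to 90%. The genic quartile bars of CHG reach far lower in the 3 upper CG steps.

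CHG levels in genic TEs were strongly graded by TE length. TE length was taken as the end minus the start of the listed region, and TEs were grouped by the limits 100, 200, 500, 1000, 2000 and 5000 bp. In genic TEs the mean CHG level was higher in each longer class: 26.4% under 100 bp, 34.4% from 100 bp, 39.6% from 200 bp, 47.7% from 500 bp, 56.1% from 1000 bp, 70.1% from 2000 bp and 76.96% at 5000 bp or more. In intergenic TEs the range over the same classes was narrower, with 58.04% under 100 bp, 56.3% from 100 bp, 57.8% from 200 bp, 63.2% from 500 bp, 64.04% from 1000 bp, 69.6% from 2000 bp and 72.6% at 5000 bp or more. Spearman's rank correlation of CHG level with length was 0.362 in genic TEs (0.313 to 0.436 over 19 chromosomes) and 0.128 in intergenic TEs (0.105 to 0.168).

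The CHG difference between the classes was largest in the shortest TEs and turned round in the longest. The mean over all TEs was 46.5% in genic and 61.9% in intergenic TEs, a genic minus intergenic difference of -15.4 points (SD over 19 chromosomes 2.20), with genic TEs lower on 19 of 19 chromosomes. Under 100 bp the difference was -31.7 points (SD 5.11), from 200 to 500 bp it was -18.2 points (SD 3.07) and from 1000 to 2000 bp it was -7.99 points (SD 3.11), each with genic TEs lower on 19 of 19 chromosomes. From 2000 to 5000 bp it was 0.489 points (SD 2.56), with genic TEs lower on 8 chromosomes and higher on 11, so no difference beyond the spread over chromosomes was seen. At 5000 bp or more, where 645 genic and 3151 intergenic TEs were listed, it was 4.37 points (SD 2.50), with genic TEs higher on 17 chromosomes.

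The joint states moved with length in the same way. State shares are of the TEs listed in all 3 contexts, and this part grew with length. It was 11.4% of genic and 11.5% of intergenic TEs under 100 bp, against 98.9% and 99.2% at 5000 bp or more. The state with CG alone held 36.3% of genic TEs under 100 bp, 29.1% from 200 to 500 bp, 14.1% from 1000 to 2000 bp, 3.40% from 2000 to 5000 bp and 0.312% (2 of 642 TEs) at 5000 bp or more. In intergenic TEs it held 9.17% under 100 bp, 6.01% from 200 to 500 bp, 1.88% from 1000 to 2000 bp, 0.632% from 2000 to 5000 bp and none of 3143 TEs at 5000 bp or more. In its place, CG with CHG held 90.2% of genic TEs and 88.4% of intergenic TEs at 5000 bp or more and was the most frequent state in both. CHG was listed at 0 in 38.6% of genic and 7.60% of intergenic TEs under 100 bp, and in none at 5000 bp or more. The part of the TEs listed at 0 in the length trend was not tested.

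CHH levels were also higher in longer genic TEs. The mean was 1.27% under 100 bp, 2.09% from 500 to 1000 bp, 3.19% from 2000 to 5000 bp and 3.60% at 5000 bp or more in genic TEs, against 2.71%, 3.29%, 3.41% and 3.60% in intergenic TEs of those lengths. The intergenic means did not rise with each longer class. They were 3.25% from 100 to 200 bp, 2.88% from 200 to 500 bp and 3.02% from 1000 to 2000 bp. The rank correlation with length was 0.404 in genic and 0.267 in intergenic TEs, and over the TEs listed in all 3 contexts it was 0.340 in genic and 0.115 in intergenic TEs. In CG the genic means were also higher in longer classes, with 77.3% under 100 bp, 82.2% from 100 to 200 bp and 88.3% at 5000 bp or more in genic TEs, against 81.5%, 79.97% and 85.5% in intergenic TEs. The rank correlation was -0.0550 in genic and -0.0752 in intergenic TEs, while Pearson's r with the logarithm of length was 0.121 in genic and 0.0743 in intergenic TEs, so the direction of this weak relation depended on the measure. The genic minus intergenic difference in CG was 2.27 points (SD over chromosomes 1.51), with genic TEs lower on chromosome 15 only, but under 100 bp it was -4.24 points (SD 6.47), with genic TEs lower on 14 of 19 chromosomes. Over all TEs the difference in CHH was -1.10 points (SD 0.270), with genic TEs lower on 19 of 19 chromosomes.

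**Figure D4:**
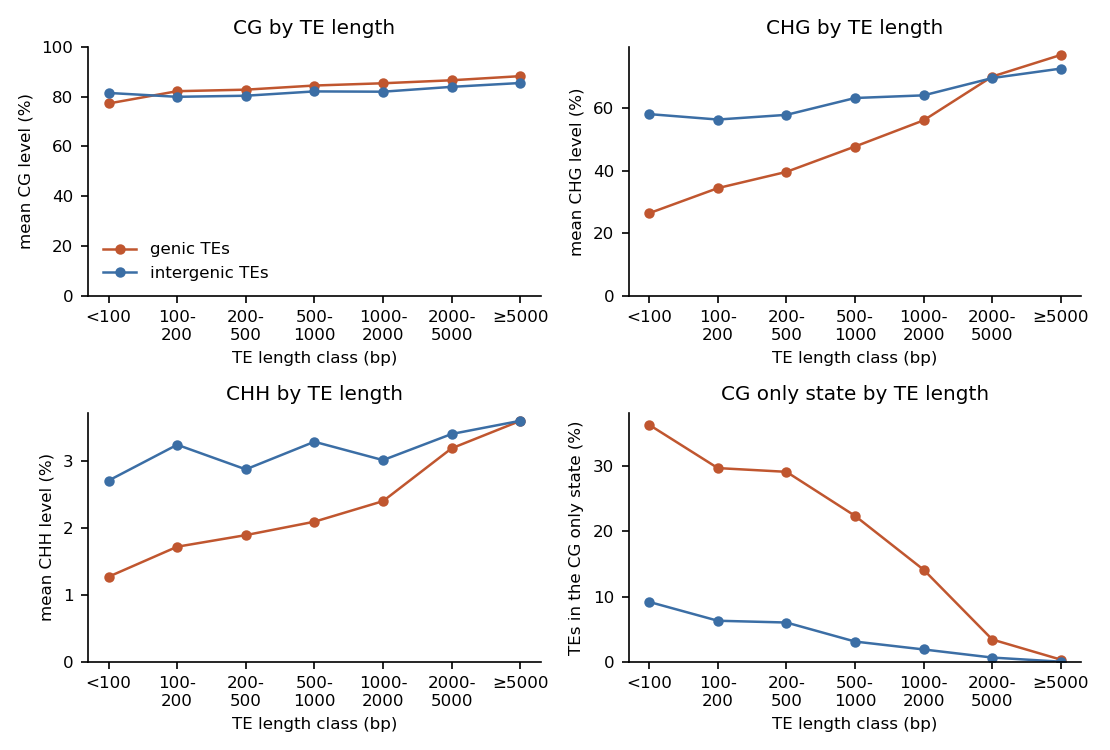
Mean methylation level (y axis, percent) in the CG, CHG and CHH contexts and share of TEs in the CG only state (y axis, percent of TEs listed in all 3 contexts), by TE length class (x axis, bp). Points are means or shares over TEs of 1 library. The genic CHG line runs below the intergenic one up to 2000 bp, meets it at 2000 to 5000 bp (70.1% and 69.6%) and lies above it at 5000 bp or more.

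A small set of TEs carried CHH levels far above the rest. A CHH level of at least 20% was found in 234 genic TEs (0.540% of 43341) and 1815 intergenic TEs (1.29% of 140592), and a level of at least 50% in 9 genic and 96 intergenic TEs. These TEs were short. Of those with at least 20%, 52.6% of genic and 54.3% of intergenic TEs were under 200 bp, against 34.5% of all genic and 30.9% of all intergenic TEs listed for CHH. Where CHG was also listed, its median in TEs with at least 20% CHH was 65.1% in 106 genic TEs and 69.7% in 814 intergenic TEs, and the median CG level was 86.9% in 79 genic TEs and 88.7% in 728 intergenic TEs. Of these TEs, 26.1% of the genic and 30.1% of the intergenic ones were listed in all 3 contexts, so for the others at least 1 of these levels is unknown.

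Levels of neighbouring TEs were alike over short distances. For adjacent genic TEs less than 1 kb apart, without overlap, the rank correlation between the CHG levels was 0.506 (10674 pairs). The median absolute difference was 14.1 points. From 1 to 10 kb the rank correlation was 0.143 (7344 pairs) and the median absolute difference 26.7 points. From 10 to 100 kb the rank correlation was 0.0745 (1037 pairs). Adjacent intergenic TEs had a rank correlation of 0.308 under 1 kb, 0.137 from 1 to 10 kb and 0.0664 from 10 to 100 kb. A genic TE and the intergenic TE next to it had a rank correlation of 0.444 under 1 kb (982 pairs), with mean levels of 57.1% in the genic and 60.5% in the intergenic TEs. From 1 to 10 kb the rank correlation was 0.0959 (7259 pairs), with 39.9% in the genic and 54.4% in the intergenic TEs. The likeness was weaker in CG, where the rank correlation under 1 kb was 0.196 between genic and 0.223 between intergenic TEs.

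Intergenic TEs near genic TEs were in the CG only state more often than those far away. The share was 4.84% at less than 1 kb from the nearest genic TE, 5.54% at 1 to 5 kb, 4.02% at 5 to 20 kb, 2.47% at 50 to 100 kb and 1.31% at 100 kb or more. The state with all contexts methylated held 19.9% of intergenic TEs at 1 to 5 kb and 14.4% at 100 kb or more. The intergenic TEs at 100 kb or more were also longer, with a median of 527 bp against 272 bp at 1 to 5 kb, and the part of length in these shares was not tested. Over all placed intergenic TEs the level itself hardly followed the distance, with rank correlations of -0.0195 for CG, 0.0259 for CHG and 0.0561 for CHH.

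Taken over windows of 1 Mb along the chromosomes, mean CHG levels ranged more widely in genic than in intergenic TEs. In windows of 1 Mb with at least 20 TEs, the mean genic CHG level had a median of 46.5%, with 5th and 95th percentiles of 33.7% and 60.1% over 406 windows, against a median of 60.98%, with 52.9% and 68.2%, for intergenic TEs over 433 windows. The lowest genic window was chr18:14000001-15000000 with 20.96% (21 TEs) and the highest was chr15:7000001-8000000 with 74.4% (31 TEs). The rank correlation of the window mean with the share of genic TEs among the window's TEs was -0.266 for genic CHG, -0.305 for intergenic CHG and 0.418 for intergenic CHH. In windows rich in genic TEs, the means over intergenic TEs thus tended to be lower in CHG and higher in CHH. Only means were taken over windows. Grouped instead by distance from the nearest genic TE, the medians of intergenic CHH did not follow the means. At less than 1 kb, 1 to 5 kb and 100 kb or more from a genic TE, mean intergenic CHH was 3.11%, 3.26% and 3.06%. The medians at these distances were 2.12%, 1.76% and 2.62%. By chromosome, mean genic CHG ranged from 43.4% on chromosome 9 to 50.7% on chromosome 15, and mean intergenic CHG from 57.6% to 66.2% on the same chromosomes. The spread over whole chromosomes was thus not wider in genic TEs, with an SD of 1.75 points against 2.37 points in intergenic TEs.

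The average profiles over whole features show where in a feature the methylation lay. These profiles were averaged by the authors over features in 100 bins of the body, with 12 bins over the flanks of 1 kb on both sides, and hold no spread over features. By the study's methods, the features analysed in this way had an effective coverage above 20 in both libraries. Over TEs the CG level was flat along the body, between 84.5% and 86.8%, and CHG stepped up by 11.5 points at the start and down by 12.4 points at the end. TE levels were not uniform in CHG, with a minimum of 64.7% in bin 1 and a maximum of 70.5% in bin 48. Over genes the CG level was 8.88% in the first bin and 68.7% in bin 51, and the last bin had 34.8%. Gene CHG was 5.53% in the first bin, highest in bin 40 with 18.5% and lowest in bin 98 with 5.14%, and gene CHH was highest in the same bin 40, with 1.05%.

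The body average over TEs was 1.51 times that over genes in CG (85.9% and 56.9%), 5.02 times in CHG (68.4% and 13.6%) and 3.70 times in CHH (3.15% and 0.851%). TEs and genes are not separate sets here, since genic TEs overlap genes. The levels were not corrected here for incomplete conversion. Its part in the gene CHH level, which was lowest in the first bin with 0.407%, and in the CHH ratio was not tested. Over the 100 body bins of genes, CHG and CHH ran almost in parallel, with a rank correlation of 0.984, while CG ran with CHG at a rank correlation of 0.691 and with CHH at a rank correlation of 0.717. In TEs the same pairs had rank correlations of 0.757, 0.293 and 0.433. Neighbouring bins share reads and features, so these values are descriptions. Gene CHG lay on both sides of the level in the flanks. It stepped by -5.19 points into the first body bin and by -4.47 points at the end, taken as the last body bin minus the first bin after it. The body minus flank difference was 0.198 points over all bins, 3.24 points with the middle 50 body bins and -5.26 points against the outermost flank bins.

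**Figure D5:**
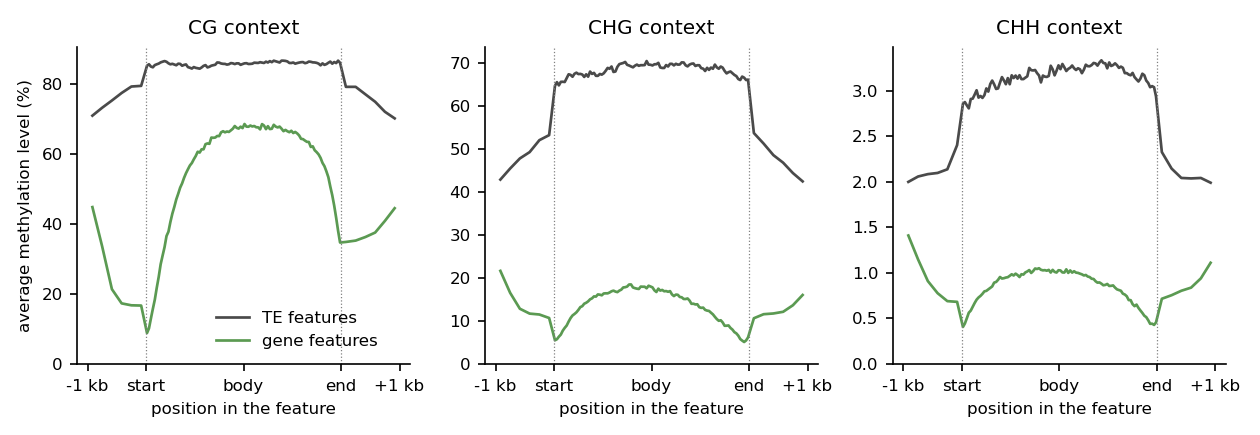
Average leaf methylation level (y axis, percent, from 0) along TEs and genes in each context, with 1 kb of flank on each side and the body scaled to 100 bins (x axis). The flank is drawn on its own scale. TE lines lie above gene lines throughout, TE CG stays between 84.5% and 86.8% in the body, and gene CG climbs from 8.88% in the first bin to 68.7% in bin 51.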

How the data were processed

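By the study's methods, reads had been placed on the 12X PN40024 assembly with BS-Seeker2 and methylation called with cgmaptools. The authors annotated TEs with RepeatMasker and divided them into genic and intergenic by overlap with the gene annotation with bedtools. Each deposited value is a methylated fraction computed by the authors, from 0 to 1, in 6 tables of TEs (1 per class and context) and 2 tables of profiles, and was multiplied to a percentage. No correction for incomplete conversion was made here, so low levels, above all in CHH, may hold an unknown part of it. TEs were kept where the effective coverage exceeded 20 in both libraries, so listing also depended on the callus library. Coverage itself is not in the tables used, so neither intervals for read depth nor another coverage minimum could be computed.

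The leaf values were joined by TE position. Joint states, Spearman's rank correlations, length classes, class differences and 95% Wilson intervals were computed with Python 3.11.15, pandas 2.3.3, numpy 2.4.6 and scipy 1.17.1, and figures were drawn with matplotlib 3.10.9. The functions were tested on simulated data. Values over chromosomes left out 7622 TEs (4.14%) on 13 sequences without a position. The TEs named singly were the longest in each class and in each state that held at least 20 TEs. The members, limits and groupings were chosen with earlier results of these data known. Alternatives covered other averages, state limits, correlation measures and subsets of TEs.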

Additional observations from a re-analysis of the deposited data

How the results depend on the processing

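Of 149 values recomputed under the alternatives for 35 results, 71 stayed within the spread of the main value (1 SD over 19 chromosomes or over profile bins, or the Wilson interval of a share), 74 moved beyond it and 4 changed sign. The genic minus intergenic difference kept its sign in each context under every alternative run, although within length classes it turned positive in CHG from 2000 bp and negative in CG under 100 bp, and the CG only share stayed higher in genic than in intergenic TEs. The medians over TEs were 89.01% (CG), 55.3% (CHG) and 1.11% (CHH) in genic and 87.3%, 68.3% and 2.11% in intergenic TEs, with a CHG difference of -13.0 points. Weighting by TE length gave 85.9%, 60.9% and 2.66% in genic TEs, and 67.3% (CHG) and 3.29% (CHH) in intergenic TEs.

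Among TEs listed in all 3 contexts, mean levels were 51.6% (genic CHG), 2.38% (genic CHH) and 3.48% (intergenic CHH). The CHG difference was -11.5 points and the rank correlation between CHG and CHH 0.637 in genic TEs. The rank correlation with length was 0.329 (genic CHG), 0.340 (genic CHH) and 0.115 (intergenic CHH). Among TEs of at least 500 bp, mean levels were 56.2% (genic CHG), 2.46% (genic CHH) and 65.4% (intergenic CHG), and the differences were -9.14 points (CHG) and -0.787 points (CHH). The shares were 14.4% (CG only), 76.1% (CG and CHG), 7.42% (all contexts) and 1.31% (none) in genic TEs, against 1.95%, 81.01%, 13.7% and 1.47% in intergenic TEs. The rank correlation between CG and CHG was 0.272 in genic and 0.487 in intergenic TEs, and between CHG and CHH 0.656 in genic TEs. The rank correlation with length was -0.0216 (CG), 0.312 (CHG) and 0.344 (CHH) in genic TEs, and 0.109 (CHG) and 0.169 (CHH) in intergenic TEs.

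With limits of 80% CG, 40% CHG and 10% CHH the shares of the same 4 states were 21.7%, 55.99%, 1.01% and 10.9% in genic and 5.01%, 65.4%, 2.79% and 8.04% in intergenic TEs. With 20%, 10% and 2% they were 16.1%, 33.2%, 48.2% and 1.62% in genic and 2.71%, 27.5%, 67.5% and 1.40% in intergenic TEs. The shares of CG with CHG and of all contexts thus depended on the limits, which were changed together. With the lower limits, CG with CHG was more frequent in genic than in intergenic TEs, the reverse of the order at the main limits. All contexts was then the most frequent state in both classes. Keeping the longest of overlapping TEs gave CG only shares of 20.9% in genic and 3.69% in intergenic TEs, and rank correlations with length of 0.424 (genic CHH) and 0.155 (intergenic CHG).

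Pearson's r was 0.306 (CG with CHG), 0.434 (CHG with CHH) and 0.0954 (CG with CHH) in genic TEs, and 0.538 (CG with CHG) and 0.225 (CHG with CHH) in intergenic TEs, and over TEs above 0 the rank correlation between CHG and CHH was 0.549 in genic and 0.299 in intergenic TEs. Pearson's r with log10 length was 0.121 (CG) and 0.146 (CHH) in genic TEs, against 0.0743 (CG), 0.195 (CHG) and 0.0255 (CHH) in intergenic TEs. Both CG values changed sign, and the cause was not tested. Against the outermost flank bins, body minus flank was 15.2 points (TE CG), 25.7 points (TE CHG), -5.26 points (gene CHG, a change of sign) and -0.409 points (gene CHH). With the middle 50 body bins gene CHH was 0.0877 points, also a change of sign.

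Leaving out a replicate was not possible with 1 library, and neither was another coverage minimum. No paired analysis was possible because there is 1 leaf library. The read depth behind each level is unknown, so its part in the spread over TEs was not tested.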
